A study of Mus musculus and Homo sapiens with 176 samples.

Results

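The genes described here are 10 neuropeptide precursor genes, taken by symbol from the deposited gene tables: Sst, Vip, Cck, Npy, Tac1, Tac2, Penk, Pdyn, Crh and Cort. Each symbol named 1 of the 24854 features of the tables, and all 10 genes passed the filter on low values that 14376 features passed. RNA of sorted nuclei was sequenced in 8 libraries, 2 from each of 4 groups: nuclei with and without the neuronal antigen NeuN, from the prefrontal cortex and from the cerebellum. All 8 libraries came from 1 C57BL/6 mouse (mouse 3 of the 3 in the study) aged 8 to 10 weeks, and the sample names do not say whether replicates 1 and 2 were separate sorts. The p-values below therefore measure the spread between libraries of 1 animal, which may be technical. The submitters call the sorted fractions neurons and glia. The labels describe the dissection of the cerebellum only.

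A neuropeptide gene encodes a long precursor, which prohormone convertases cut and other enzymes trim and amidate inside dense core vesicles. The released peptides act on G protein-coupled receptors, usually more slowly and over longer distances than the classical transmitter of the same cell. In the cerebral cortex Sst and Vip mark separate classes of inhibitory interneurons. Npy, Crh, Cort, Tac1, Tac2, Penk and Pdyn are each expressed by smaller sets of inhibitory or excitatory neurons, and Cck by both interneurons and projection neurons. Transcription of several of these genes, Sst above all, is known to be driven through the cAMP response element, bound by CREB.

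Promoter sequences are shown to let a reader see which of them hold this element. Any part of the element in the differences between regions was not tested. RefSeq promoter windows of GRCm38.p6 (250 bases before to 50 after the transcription start) were matched for 8 of the 10 genes, with 9 windows. Both strands were searched for the full element TGACGTCA and for its part TGACG, which the full element contains on both strands. The full element was found only in Sst among the matched genes, while 1.79% of all 32851 windows hold it. The shorter motif was found in 5 of the 8 genes (Sst, Vip, Cck, Tac1 and Cort), against 20.8% of all windows. It was not found in the windows of Npy, Tac2 and Pdyn. The stretches around each match run 5′ to 3′ on the strand of the gene, with TGACG or its complement CGTCA in capitals. They lie at chr16:23890870-23890910 (minus strand), chr10:5639121-5639161 (plus), chr9:121495719-121495759 (minus), chr6:7554846-7554886 and chr6:7555000-7555040 (both plus) and chr4:149126759-149126799 (minus), in that order.
Sst: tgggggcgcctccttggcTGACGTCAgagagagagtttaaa
Vip: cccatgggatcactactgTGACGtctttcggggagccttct
Cck: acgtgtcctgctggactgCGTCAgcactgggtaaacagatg
Tac1, distal match: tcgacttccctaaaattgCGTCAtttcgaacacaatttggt
Tac1, proximal match: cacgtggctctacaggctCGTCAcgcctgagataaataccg
Cort: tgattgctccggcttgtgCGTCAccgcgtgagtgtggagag
The match begins 48 bases before the start in Sst, 79 in Vip, 47 in Cck, 197 and 43 in Tac1 and 18 in Cort. A match of letters is a description of the sequence and not a mapped binding site.

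Levels are given as FPKM, which counts fragments per transcript length and library size, so those of different genes can be compared. The FPKM of a library summed to between 289350 and 426851, and 11256 to 12494 features reached 1 FPKM. Each deposited value has confidence limits, but the number of fragments behind it is not given. Rbfox3, which encodes the NeuN antigen, stood at 16.7 ± 0.361 (NeuN+) and 11.8 ± 1.03 (NeuN-) scaled FPKM (SD, n = 2) in the prefrontal cortex. In the cerebellum it stood at 126 ± 3.48 (NeuN+) and 35.2 ± 0.704 (NeuN-). It was thus called higher in NeuN+ nuclei of both regions, by 0.47 (SE 0.0631, limma adjusted p = 5.47e-04) on the log2 scale in the prefrontal cortex and by 1.81 (SE 0.0631, limma adjusted p = 1.33e-06) in the cerebellum. Markers of astrocytes, oligodendrocytes and their precursors were all called lower in the NeuN+ nuclei of both regions (11 of 11, 10 of 10 and 7 of 7 genes that passed the filter). Of these, Gfap, Sox9, Mag, Pdgfra, Neu4, Sox10 and Cspg4 reached 1 FPKM in NeuN- libraries alone, so that their direction follows from the filter. Of 9 microglial markers, 9 were called lower in prefrontal and 8 in cerebellar NeuN+ nuclei. Over all features, 37.6% were called lower in prefrontal and 39.2% in cerebellar NeuN+ nuclei. Markers of granule cells, the main neurons of the cerebellum, were all called higher in cerebellar NeuN+ nuclei than in cerebellar NeuN- nuclei (12 of 12). Of all features, 32.4% were called higher there. The granule cell markers still summed to 355 to 357 scaled FPKM in the cerebellar NeuN- libraries, against 1206 to 1209 in the NeuN+ libraries. In RNA from a sorted pool, fewer cells of a type and less RNA per cell cannot be told apart.

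The 10 genes fell into a prefrontal pattern and a cerebellar pattern. In the prefrontal cortex every library listed all 10 above 1 FPKM, and their FPKM summed to 1818 and 1696 in the NeuN+ libraries and to 2790 and 2533 in the NeuN- libraries. That was 0.555% to 0.654% of all FPKM in a library. In the cerebellum the sums were 74.1 and 69.0 FPKM in NeuN+ and 109 and 106 FPKM in NeuN- libraries, between 0.0237% and 0.0376% of the total. The share of the 10 genes therefore did not overlap between the regions, and in both regions 3 genes carried most of it (87.8% to 94.0% of the sum).

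**Figure D1:**
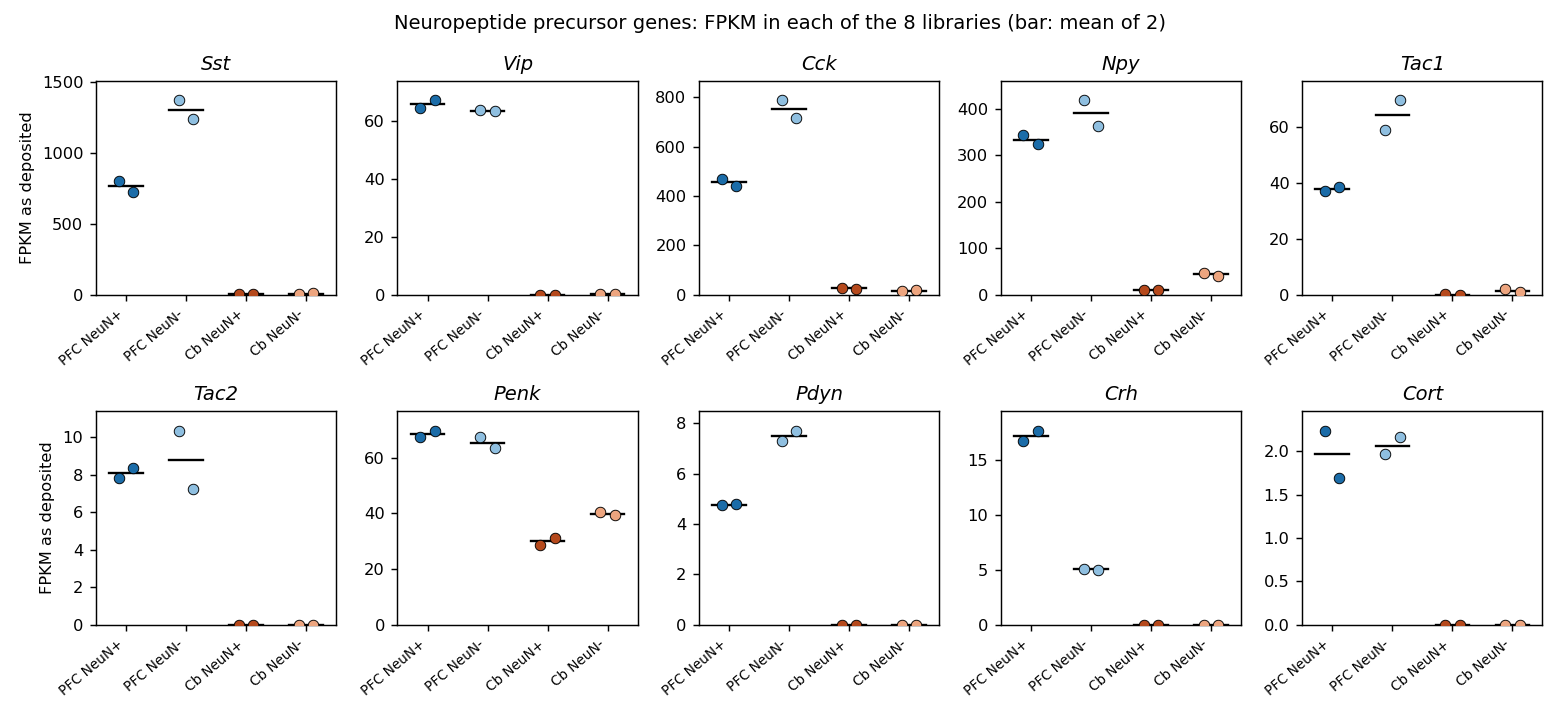
Deposited FPKM of each neuropeptide gene (vertical axes, a separate linear scale per gene from 0) in the 8 libraries, grouped as prefrontal cortex (PFC) and cerebellum (Cb), NeuN+ and NeuN-; points are libraries and bars are means of 2. All genes sit higher in the 4 prefrontal libraries than in the 4 cerebellar ones, with Penk showing the smallest gap and Crh being the only gene whose NeuN+ libraries are more than 3 times its NeuN- libraries.

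Between the regions, all 10 genes were called lower in the cerebellum, both among NeuN+ and among NeuN- nuclei (limma on log2 of scaled FPKM + 1, adjusted p under 0.05). Over all features tested, 40.7% were called lower and 36.5% higher in cerebellar NeuN+ nuclei, and 39.0% lower and 40.5% higher in cerebellar NeuN- nuclei. Sst, Cck, Npy and Penk passed the filter on low values in both regions, whereas the other 6 passed it through their prefrontal libraries alone, so that their direction follows from the filter. These 10 calls were made under every alternative tried, except that Cort dropped out of the test under the stricter filter on low values.

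Sst, the precursor of somatostatin, was the highest of the 10 genes in the prefrontal cortex, ranking 22nd of 14376 features in NeuN+ and 15th in NeuN- nuclei. The prefrontal libraries held 806 and 724 FPKM for NeuN+ and 1371 and 1237 for NeuN- nuclei. The cerebellar libraries held 6.27 and 4.12 FPKM for NeuN+ and 5.51 and 8.76 for NeuN- nuclei. Both prefrontal NeuN- libraries were above both NeuN+ libraries, whereas the cerebellar libraries overlapped. Scaled to a common median of ratios, the prefrontal means were 800 ± 60.8 (SD, n = 2) and 1156 ± 67.6, a log2 difference of -0.53 (SE 0.226) that did not pass the test (limma adjusted p = 0.0719). That call was made under 4 of the 20 settings tried, where the adjusted p ran from 0.0154 to 0.504: with the FPKM as deposited, with the 2 groups alone, and without either cerebellar NeuN- library. Sst was 127-fold lower in cerebellar than in prefrontal NeuN+ nuclei (log2 -6.99) and 140.5-fold lower among NeuN- nuclei (log2 -7.13).

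Cort encodes cortistatin, whose mature peptide resembles somatostatin, and it was the lowest of the 10 genes in the prefrontal cortex. Its libraries held 2.24 and 1.69 FPKM in NeuN+ and 1.97 and 2.16 FPKM in NeuN- nuclei of the prefrontal cortex, which overlapped, and it was listed at 0 in all 4 cerebellar libraries. Confidence limits ran from 0.413 to 3.73 FPKM over the prefrontal NeuN+ and from 0.827 to 3.41 FPKM over the prefrontal NeuN- libraries. The prefrontal log2 difference was 0.11 (SE 0.0975, limma adjusted p = 0.362). It was called, at 0.24, only without the second prefrontal NeuN+ library (limma adjusted p = 0.0256, from a range of 0.0256 to 0.715 over the settings). Set against Sst in the same library, Cort stood at 0.278 and 0.234 FPKM per 100 of Sst in NeuN+ and at 0.143 and 0.174 in NeuN- nuclei.

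Crh, the precursor of corticotropin-releasing hormone, had the largest difference between the sorted fractions of the prefrontal cortex among the 10 genes. It was measured at 16.8 and 17.7 FPKM in the NeuN+ and at 5.13 and 5.01 FPKM in the NeuN- libraries, with no overlap, and was listed at 0 in all 4 cerebellar libraries. The scaled means of 18.1 ± 0.655 and 4.50 ± 0.0106 (SD, n = 2) differed by 1.79 on the log2 scale (SE 0.0647), a 3.47-fold higher level in NeuN+ nuclei (limma adjusted p = 1.46e-06). This call was made under all 20 settings, with log2 differences of 1.59 to 1.98. Ratios within a library do not depend on the scaling: per 100 of Sst there were 2.09 and 2.45 of Crh in NeuN+ and 0.374 and 0.405 in NeuN- nuclei. Per 100 of Gad1, which encodes an enzyme of GABA synthesis, there were 28.6 and 29.8 of Crh in NeuN+ and 8.31 and 7.60 in NeuN- nuclei.

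Vip, the precursor of vasoactive intestinal peptide, was close in both prefrontal fractions, at 64.6 and 67.1 FPKM in NeuN+ and 63.6 and 63.5 FPKM in NeuN- libraries. In the cerebellum it was listed at 0 in both NeuN+ libraries and at 0.0486 and 0.0797 FPKM in the NeuN- libraries. The prefrontal fractions did not overlap, and after scaling Vip was called 1.22-fold higher in NeuN+ nuclei (log2 0.28, SE 0.0556, limma adjusted p = 0.00336). The call was lost with the FPKM as deposited (log2 0.05, limma adjusted p = 0.437) and with a pseudocount of 0.1, within a range of adjusted p from 2.70e-04 to 0.437. Among NeuN- nuclei Vip was 53.8-fold lower in the cerebellum.

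Cck, the precursor of cholecystokinin, was the second highest prefrontal gene and reversed its direction between the regions. Its prefrontal values were 469 and 440 FPKM (NeuN+) and 787 and 714 FPKM (NeuN-). The cerebellar values were 28.1 and 24.3 FPKM (NeuN+) and 14.1 and 17.1 FPKM (NeuN-). In neither region did the fractions overlap, and the NeuN- libraries were the higher ones in the prefrontal cortex and the lower ones in the cerebellum. Cck was called 1.40-fold lower in prefrontal NeuN+ nuclei (log2 -0.48, SE 0.107, limma adjusted p = 0.00602) and 1.65-fold higher in cerebellar NeuN+ nuclei (log2 0.72, SE 0.107, limma adjusted p = 9.05e-04). The cerebellar minus the prefrontal difference was 1.20 (SE 0.152, limma adjusted p = 4.87e-04) and was called under all 19 settings. The prefrontal call was lost with a common FPKM sum (log2 -0.27) and with quantile normalization (log2 -0.20), where the adjusted p was 0.0551 and 0.130 in a range from 0.00101 to 0.130. Between regions Cck was 16.9-fold lower in cerebellar NeuN+ and 38.9-fold lower in cerebellar NeuN- nuclei.

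Npy, the precursor of neuropeptide Y, was lower in cerebellar NeuN+ than in cerebellar NeuN- nuclei. In the cerebellum it was measured at 10.9 and 9.37 FPKM (NeuN+) and 47.0 and 40.1 FPKM (NeuN-). In the prefrontal cortex it was measured at 343 and 324 FPKM (NeuN+) and 417 and 363 FPKM (NeuN-). The deposited values of the fractions did not overlap in the cerebellum; in the prefrontal cortex they did not overlap as deposited but did once scaled. The tables' own confidence limits ran from 6.93 to 13.7 FPKM over the cerebellar NeuN+ and from 35.1 to 53.1 FPKM over the cerebellar NeuN- libraries. Npy was called 4.01-fold lower in cerebellar NeuN+ than in NeuN- nuclei (log2 -2.00, SE 0.108, limma adjusted p = 7.29e-06), under all 20 settings. In the prefrontal cortex the scaled means were 349 ± 13.9 and 346 ± 29.0 (SD, n = 2) and the log2 difference was 0.01 (SE 0.108, limma adjusted p = 0.924). The cerebellar minus the prefrontal fraction difference, -2.02 (SE 0.153), was called (limma adjusted p = 5.42e-05). Npy made up 14.2% of the summed level of the 10 genes in cerebellar NeuN+ and 40.5% in cerebellar NeuN- nuclei.

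**Figure D2:**
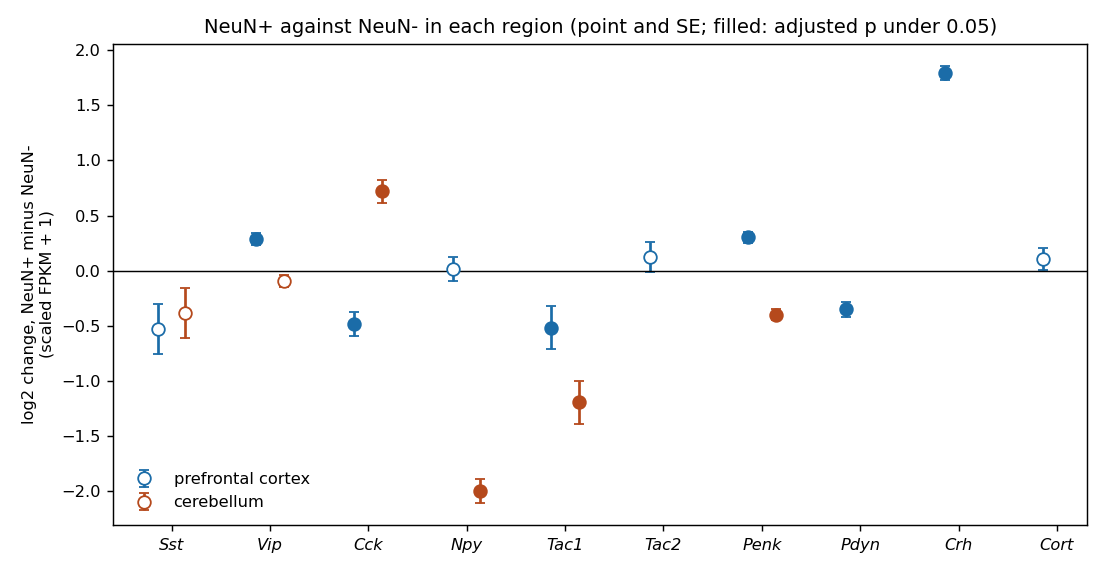
Log2 difference between NeuN+ and NeuN- nuclei (vertical axis, scaled FPKM + 1) for each neuropeptide gene, in the prefrontal cortex (blue) and the cerebellum (orange); bars are standard errors and filled points have an adjusted p under 0.05. Genes listed at 0 in all cerebellar libraries have no cerebellar point; Cck lies on opposite sides of 0 in the regions, and Crh (1.79) and Npy in the cerebellum (-2.00) lie farthest from 0.

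Tac1 encodes the precursor of substance P and neurokinin A. In the prefrontal cortex it was measured at 36.9 and 38.3 FPKM (NeuN+) and 58.9 and 69.3 FPKM (NeuN-). In the cerebellum it was measured at 0.0714 and 0 FPKM (NeuN+) and 1.86 and 0.888 FPKM (NeuN-). NeuN- libraries were above NeuN+ libraries in both regions, with no overlap. Tac1 was called 1.43-fold lower in prefrontal NeuN+ nuclei (log2 -0.52, SE 0.195, limma adjusted p = 0.0488). That call was made under 6 of the 20 settings only, with adjusted p-values up to 0.269, and was lost without either prefrontal NeuN+ library, without either prefrontal NeuN- library and without either cerebellar NeuN+ library. In the cerebellum Tac1 was 2.29-fold lower in NeuN+ nuclei (log2 -1.19, SE 0.195, limma adjusted p = 0.00139), and a fold on this scale understates the change of a gene near 1 FPKM. The cerebellar minus the prefrontal fraction difference was not called (log2 -0.68, limma adjusted p = 0.0642).

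Tac2, which encodes the precursor of neurokinin B, was measured at 7.84 and 8.38 FPKM in prefrontal NeuN+ and 10.3 and 7.23 FPKM in prefrontal NeuN- libraries, which overlapped, and was listed at 0 in all cerebellar libraries. Its prefrontal log2 difference was 0.13 (limma adjusted p = 0.432). It was called, at 0.34, only without the first prefrontal NeuN- library (limma adjusted p = 0.00986, in a range up to 0.706).

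The opioid precursors Penk (enkephalins) and Pdyn (dynorphins) differed from each other in both respects. Penk had the smallest gap between the regions of the 10 genes. Prefrontal libraries had 67.6 and 69.7 FPKM of Penk (NeuN+) and 67.3 and 63.5 FPKM (NeuN-). Cerebellar libraries had 28.8 and 31.2 FPKM (NeuN+) and 40.4 and 39.4 FPKM (NeuN-), so the regions did not overlap and neither did the fractions within a region. Penk was 2.27-fold lower in cerebellar NeuN+ nuclei (log2 -1.18, limma adjusted p = 2.11e-06) and 1.39-fold lower in cerebellar NeuN- nuclei (log2 -0.48, limma adjusted p = 1.39e-04) than in the same prefrontal fractions. It was the highest of the 10 genes in cerebellar NeuN+ nuclei, with 31.1 ± 1.60 scaled FPKM (SD, n = 2) or 41.9% of the summed level.

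Between the fractions, Penk was called 1.23-fold higher in prefrontal NeuN+ nuclei (log2 0.30, SE 0.0511, limma adjusted p = 0.00166) and 1.32-fold lower in cerebellar NeuN+ nuclei (log2 -0.40, SE 0.0511, limma adjusted p = 4.12e-04). The cerebellar fraction difference minus the prefrontal one was -0.70 (limma adjusted p = 1.90e-04). The prefrontal call, but not the cerebellar one, was lost with the FPKM as deposited (log2 0.07, limma adjusted p = 0.291, in a range from 1.37e-04 to 0.291). Pdyn was measured at 4.75 and 4.78 FPKM in prefrontal NeuN+ and 7.29 and 7.70 FPKM in prefrontal NeuN- libraries and was listed at 0 in all cerebellar libraries. The prefrontal fractions of Pdyn did not overlap, and it was called 1.28-fold lower in NeuN+ nuclei (log2 -0.35, SE 0.0659, limma adjusted p = 0.00271). This call was lost with a common FPKM sum (log2 -0.17, limma adjusted p = 0.0631, in a range from 2.36e-04 to 0.0631).

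Counted over the 10 genes, the prefrontal comparison of fractions called 3 higher in NeuN+ nuclei (Crh, Penk, Vip) and 3 lower (Cck, Tac1, Pdyn), while 35.0% of all features were called higher and 37.6% lower. In the cerebellum 1 gene was called higher in NeuN+ nuclei (Cck) and 3 lower (Npy, Penk, Tac1), against 32.4% and 39.2% of all features. For the cerebellar minus the prefrontal fraction difference, 2 genes were called higher (Cck, Pdyn) and 4 lower (Crh, Npy, Penk, Vip), against 33.1% and 37.0% of all features. The prefrontal counts are near these shares, and in the cerebellum 4 of the 10 genes were listed at 0 in every library and could not differ. As deposited, the prefrontal median over all features lay at -0.19 on the log2 scale, after rescaling to a common sum at 0.14, and with the scaling used at -0.01. The split of the prefrontal calls over all features moved with it: 48.2% of them were higher in NeuN+ nuclei with the scaling used, 36.05% as deposited, 59.9% with a common sum and 55.4% after quantile normalization. The directions of Npy, Tac2 and Cort in the prefrontal cortex flipped with the FPKM as deposited.

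**Figure D3:**
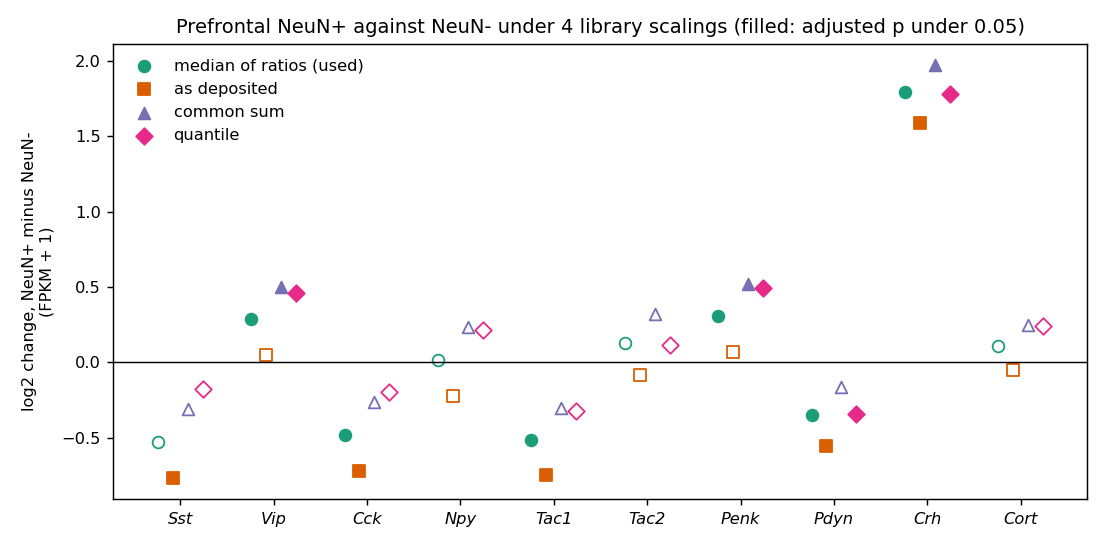
Prefrontal log2 difference between NeuN+ and NeuN- nuclei (vertical axis, FPKM + 1) for each gene under 4 ways to scale the libraries; filled symbols have an adjusted p under 0.05. Crh is called higher under all 4, between 1.59 and 1.98, and Npy, Tac2 and Cort lie on either side of 0 depending on the scaling.

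The order of the genes also differed between the regions. In both prefrontal fractions Sst came first, Cck second and Npy after them, with group means of 800, 475 and 349 scaled FPKM in NeuN+ and 1156, 665 and 346 in NeuN- nuclei. Penk, Vip and Tac1 followed, at 71.8, 68.9 and 39.3 scaled FPKM in NeuN+ nuclei, and within a narrow range of 58.0, 56.4 and 56.9 in NeuN- nuclei. Crh stood above Tac2 and Pdyn in NeuN+ nuclei (18.1 against 8.49 and 4.99) and below both in NeuN- nuclei (4.50 against 7.78 and 6.65). In cerebellar NeuN+ nuclei the order was Penk, Cck, Npy and Sst (31.1, 27.2, 10.5 and 5.40 scaled FPKM). In cerebellar NeuN- nuclei it was Npy, Penk, Cck and Sst (45.2, 41.4, 16.2 and 7.39), and the leading pair lay within the spread of the Npy libraries. Sst fell from 43.5% and 49.0% of the summed level in the prefrontal fractions to 7.27% and 6.62% in the cerebellar ones.

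**Figure D4:**
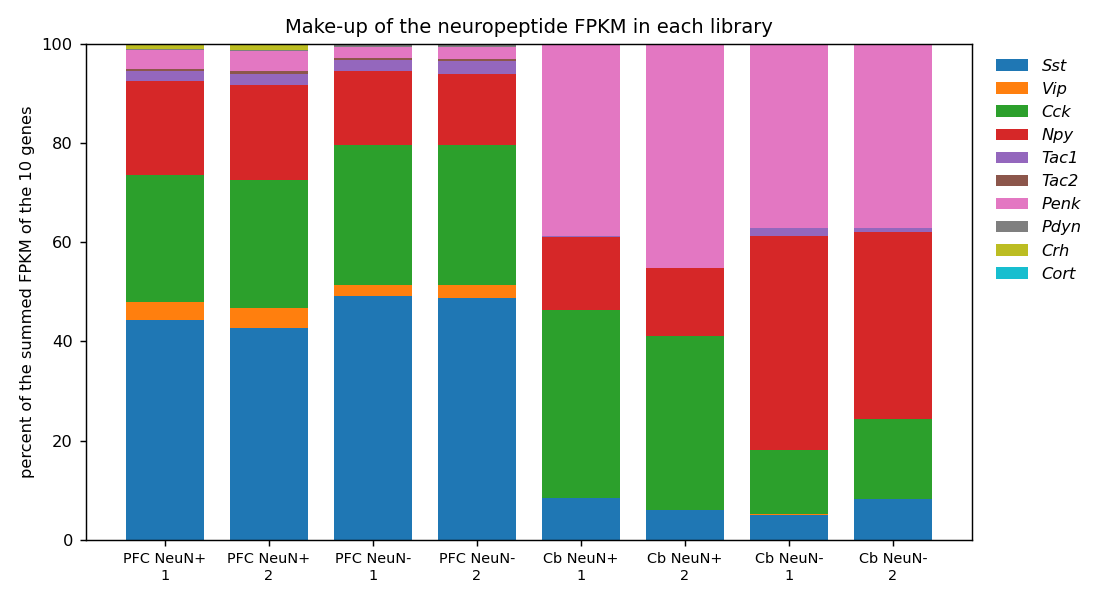
Share of each gene in the summed FPKM of the 10 neuropeptide genes (vertical axis, percent) in each library. Sst, Cck and Npy fill most of the prefrontal bars, and Penk, Cck and Npy most of the cerebellar ones, with a larger Npy share in NeuN- (40.5% by group mean) than in NeuN+ nuclei (14.2%).

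Markers of cortical interneurons were read beside these genes, since most of the 10 mark such cells. Of 26 listed markers 21 passed the filter, and in the prefrontal cortex 10 were called higher in NeuN+ nuclei, 5 lower and 6 were not called, with a median log2 difference of 0.13. Of all features, 35.0% were called higher and 37.6% lower there. The summed level of the list was 236 to 243 scaled FPKM in prefrontal NeuN+ and 223 to 226 in prefrontal NeuN- libraries. Gad1 stood at 61.8 and 56.6 scaled FPKM in prefrontal NeuN+ and NeuN- nuclei and Lamp5, a membrane protein of some interneurons, at 97.0 and 101. Other markers, chosen for mention after their values were seen, were lower in the NeuN- nuclei: Gad2 at 14.8 and 6.06, and Satb1 and Lhx6, transcription factors of interneurons that include those expressing Sst, at 9.44 and 2.64 and at 2.19 and 0.575 scaled FPKM. Lhx6 and Dlx1, both among the 10 called higher, reached 1 FPKM in prefrontal NeuN+ libraries alone, so that their direction follows from the filter. Prefrontal NeuN- libraries thus held RNA of interneuron genes, some at the NeuN+ level and some well below it. The part of this in the results for the 10 genes was not tested. Glial markers moved strongly at the same time: the astrocyte list summed to 51.0 to 52.4 scaled FPKM in prefrontal NeuN+ and 688 to 723 in prefrontal NeuN- libraries, and the oligodendrocyte list to 97.1 to 105 and 1940 to 1974.

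In the cerebellum the fractions differed in inhibitory neuron markers as well. Of 12 listed markers of cerebellar inhibitory interneurons 10 passed the filter. In NeuN+ nuclei 1 (Grm2) was called higher and 7 lower, against 32.4% and 39.2% of all features, and Slc32a1 and Lgi2 were not called. The list summed to 309 to 312 scaled FPKM in NeuN+ and 496 to 501 in NeuN- libraries. Most of each sum was Pvalb, which encodes the calcium-binding protein parvalbumin and stood at 275 and 398 scaled FPKM in cerebellar NeuN+ and NeuN- nuclei. Gad1, also on the list of Purkinje cell markers, stood at 18.5 and 54.1. The 7 lower markers and the sum had the same direction as Npy, Penk and Tac1, and the opposite one to Cck. Purkinje cell markers did not separate the fractions in 1 direction, with 3 of 10 called higher, 3 lower and 4 not called, and a sum of 1383 to 1441.5 in NeuN+ and 1307 to 1367 in NeuN- libraries. The part of these markers in the cerebellar differences was not tested.

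Penk, Pdyn and Tac1 are also genes of striatal spiny neurons, so markers of those cells were read in the prefrontal libraries. Adora2a and Drd2, which define the spiny neurons that express Penk, were listed at 0 in all 4 prefrontal libraries. Drd1, which prefrontal neurons also express, stood at 5.44 scaled FPKM in NeuN+ and 0.730 in NeuN- nuclei, and Ppp1r1b at 7.15 and 5.48. The 9 striatal markers in the tables summed to 25.2 to 26.2 scaled FPKM in NeuN+ and 13.9 to 14.0 in NeuN- libraries of the prefrontal cortex.

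The receptors of these peptides were read in the same prefrontal comparison; no test compared them with the peptide genes as a list. Of 22 listed receptor genes 12 did not pass the filter on low values. Sstr4 and Npy5r passed it only through the prefrontal NeuN+ libraries, being listed at 0 in the other 6, so that their difference follows from the filter. Of the remaining 8, 6 were called higher in prefrontal NeuN+ nuclei, 1 lower and 1 was not called, where 35.0% of all features were called higher and 37.6% lower. Sstr3, 1 of the 6, reached 1 FPKM in NeuN+ libraries alone, so that its direction also follows from the filter. Cckbr, the cholecystokinin receptor of the brain, was measured at 31.2 and 27.7 FPKM in NeuN+ and 14.3 and 12.8 FPKM in NeuN- libraries (log2 1.29, SE 0.0898, limma adjusted p = 2.37e-05), while its ligand Cck was higher in NeuN- nuclei. Crhr1, the receptor of corticotropin-releasing hormone, was measured at 6.26 and 5.90 FPKM and at 0.852 and 0.527 FPKM (log2 2.20, SE 0.111, limma adjusted p = 5.79e-06), the same direction as Crh. For both receptors the fractions did not overlap.

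Among the somatostatin receptors, Sstr2 was measured at 15.7 and 16.0 FPKM in prefrontal NeuN+ and 8.21 and 7.82 FPKM in prefrontal NeuN- libraries (log2 1.12, limma adjusted p = 8.92e-06). Sstr4 was measured at 4.85 and 6.05 FPKM in prefrontal NeuN+ libraries and was listed at 0 in the other 6. Sstr1 went the other way, with 0.785 and 0.901 FPKM in NeuN+ and 2.27 and 1.67 FPKM in NeuN- libraries (log2 -0.54, limma adjusted p = 0.00184). It passed the filter through the prefrontal NeuN- libraries alone, so that its direction follows from the filter. The ligand gene Sst did not pass the test in this comparison. Of the neuropeptide Y receptors, Npy1r stood at 24.3 ± 0.953 and 13.9 ± 0.363 scaled FPKM (SD, n = 2) in prefrontal NeuN+ and NeuN- nuclei (log2 0.76, limma adjusted p = 2.26e-05), and Npy5r at 4.47 and 5.71 FPKM in prefrontal NeuN+ libraries and at 0 in the other 6.

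**Figure D5:**
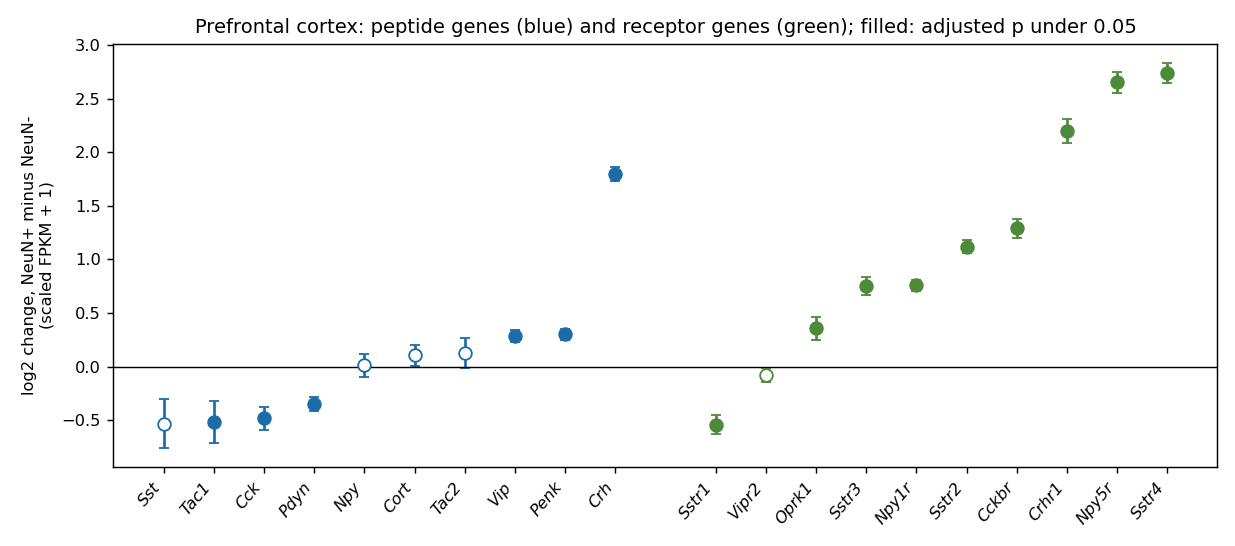
Prefrontal log2 difference between NeuN+ and NeuN- nuclei (vertical axis, scaled FPKM + 1, with standard errors) for the 10 peptide genes (blue) and the 10 receptor genes that passed the filter (green), each ordered by its difference; filled points have an adjusted p under 0.05. Sstr4 and Npy5r, at the right, are listed at 0 outside the prefrontal NeuN+ libraries and passed the filter through those alone. Sstr1, the only receptor called lower, passed it through the prefrontal NeuN- libraries alone. Sstr3 passed it through the NeuN+ libraries of both regions alone.

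Receptors were not uniformly low where their peptides were low. In the cerebellum Vip was at or near 0, while Vipr2, a receptor of its peptide, was measured at 16.6 and 17.0 FPKM in NeuN+ and 1.99 and 1.95 FPKM in NeuN- libraries, and at 0.133 to 0.277 FPKM in the prefrontal ones. Vipr2 was 15.7-fold higher in cerebellar than in prefrontal NeuN+ nuclei (log2 3.97, SE 0.0674, limma adjusted p = 7.87e-08). Crh was listed at 0 throughout the cerebellum, while Crhr1 was measured there at 18.7 and 18.7 FPKM in NeuN+ and 3.13 and 3.84 FPKM in NeuN- libraries, 2.77-fold above the prefrontal level in NeuN+ nuclei (log2 1.47, limma adjusted p = 2.59e-05). Npy1r stood at 13.1 and 12.9 scaled FPKM in cerebellar NeuN+ and NeuN- nuclei (limma adjusted p = 0.724), though Npy itself differed 4.01-fold there. Cckbr and Sstr2 were low together with their ligands, with at most 0.200 FPKM of Cckbr in any cerebellar library and Sstr2 listed at 0 in all 4. Leaving out Sstr4 and Npy5r, 3 of the 8 receptors were called higher and 5 lower in cerebellar than in prefrontal NeuN+ nuclei. Over all features, 36.5% were called higher and 40.7% lower there. Among NeuN- nuclei 3 were called higher and 4 lower in the cerebellum, against 40.5% and 39.0% of all features. Cckbr, Sstr2, Sstr1 and Oprk1 reached 1 FPKM in prefrontal libraries alone, and Vipr2 in cerebellar ones alone. Their direction between the regions thus follows largely from the filter.

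Crhbp encodes a protein that binds corticotropin-releasing hormone and limits its action. It was measured at 19.7 and 20.4 FPKM in prefrontal NeuN+ and 11.0 and 11.5 FPKM in prefrontal NeuN- libraries, and like Crh was listed at 0 in all cerebellar ones. The prefrontal fractions did not overlap and were called different (log2 1.00, SE 0.0670, limma adjusted p = 1.98e-05). Nln, the peptidase neurolysin, changed direction between the regions: it was higher in prefrontal NeuN+ than in NeuN- nuclei (14.8 and 15.7 against 6.92 and 6.97 FPKM, log2 1.24, limma adjusted p = 4.36e-06) and lower in cerebellar NeuN+ than in NeuN- nuclei (1.46 and 1.46 against 10.7 and 10.95 FPKM, log2 -2.28, limma adjusted p = 5.14e-07). Of the 9 genes in this list that passed, 3 were called higher and 1 lower in prefrontal NeuN+ nuclei, and 3 in each direction in the cerebellum. The shares over all features were 35.0% higher and 37.6% lower in the prefrontal cortex, and 32.4% and 39.2% in the cerebellum.

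Enzymes that make the peptides were spread over both fractions. Of 12 listed genes 11 passed, with 4 called higher and 6 lower in prefrontal NeuN+ nuclei and 5 in each direction in cerebellar NeuN+ nuclei. Of all features, 35.0% were called higher and 37.6% lower in the prefrontal comparison, and 32.4% and 39.2% in the cerebellar one. Cpe, the carboxypeptidase that trims cut precursors, was the highest of them and had the same directions as Cck. Prefrontal libraries had 639 and 639 FPKM of Cpe (NeuN+) and 1082 and 1140 FPKM (NeuN-), and cerebellar ones 127 and 134 FPKM (NeuN+) and 100.1 and 107 FPKM (NeuN-). Cpe was 1.47-fold lower in prefrontal NeuN+ (log2 -0.56, limma adjusted p = 1.39e-04) and 1.26-fold higher in cerebellar NeuN+ nuclei (log2 0.34, limma adjusted p = 0.00161).

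The convertase genes did not move together. Pcsk2, a main neuronal convertase, was higher in NeuN+ nuclei of the cerebellum (9.21 and 9.43 against 3.12 and 3.51 FPKM, log2 1.27, limma adjusted p = 3.66e-06). Pcsk1, the other one, stood at 2.46 and 3.17 FPKM in cerebellar NeuN+ libraries and was listed at 0 in cerebellar NeuN- libraries. Pcsk6, a convertase of the constitutive pathway, was lower in prefrontal NeuN+ nuclei (0.527 and 0.473 against 8.92 and 10.1 FPKM, log2 -2.63, limma adjusted p = 1.35e-06) and in cerebellar NeuN+ nuclei (4.09 and 3.65 against 17.6 and 19.4 FPKM, log2 -2.01, limma adjusted p = 3.97e-06). Pam, the amidating enzyme, was higher in prefrontal NeuN+ (log2 1.37, limma adjusted p = 6.80e-05) and lower in cerebellar NeuN+ nuclei (log2 -0.93, limma adjusted p = 4.21e-04). Pcsk2 and Pam overlap other annotated features, and the labels do not say whether the counting used strand.

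Genes of the dense core vesicle, which stores the peptides, were called in both directions between the fractions and between the regions. All 12 listed genes passed: 6 were called higher and 1 lower in prefrontal NeuN+ nuclei, and 9 higher and 1 lower in cerebellar NeuN+ nuclei. Over all features these shares were 35.0% higher and 37.6% lower in the prefrontal cortex, and 32.4% and 39.2% in the cerebellum. Chgb, which encodes the granin chromogranin B, was measured at 160 and 170.5 FPKM (NeuN+) and 156 and 169 FPKM (NeuN-) in the prefrontal cortex. In the cerebellum it was measured at 188 and 189.5 FPKM (NeuN+) and 56.8 and 62.3 FPKM (NeuN-). Its cerebellar fractions did not overlap (log2 1.65, limma adjusted p = 2.46e-06). Cadps and Cadps2, which encode factors for vesicle priming, were highest in different regions: Cadps at 29.0 scaled FPKM in prefrontal and 7.91 in cerebellar NeuN+ nuclei, and Cadps2 at 6.21 and 25.1. Scg2, another granin, was lower in cerebellar than in prefrontal NeuN+ nuclei (26.5 against 73.1 scaled FPKM, log2 -1.43, limma adjusted p = 2.76e-05). Over the list, 5 genes were called higher and 5 lower in cerebellar than in prefrontal NeuN+ nuclei, against 36.5% and 40.7% of all features. Among NeuN- nuclei 3 were higher and 8 lower in the cerebellum, against 40.5% and 39.0%. The list summed to 496 to 505 scaled FPKM in prefrontal and 475 to 476 in cerebellar NeuN+ libraries, and to 401 to 435 and 213 to 229 in the NeuN- libraries.

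Other peptide precursors were looked up as a list of 48 genes, of which 47 were in the tables and 22 passed the filter. In cerebellar NeuN- nuclei 14 of them were called lower and 5 higher than in prefrontal NeuN- nuclei, and among NeuN+ nuclei 10 were lower and 6 higher. Over all features, 39.0% were lower and 40.5% higher among NeuN- nuclei, and 40.7% and 36.5% among NeuN+ nuclei. Some, such as Grp and Cartpt, passed the filter through prefrontal libraries alone, and Sct through cerebellar NeuN+ libraries alone. Their direction follows from the filter. Grp, the precursor of gastrin-releasing peptide, showed the regional pattern of Tac2 and Crh, with 15.3 and 13.4 FPKM in prefrontal NeuN+ and 20.5 and 19.8 FPKM in prefrontal NeuN- libraries and 0 in all cerebellar ones. Cartpt did so too, with 4.82 to 9.51 FPKM in the prefrontal libraries and 0 in the cerebellar ones. Gnrh1, the precursor of gonadotropin-releasing hormone, went the other way, with 1.06 to 3.22 FPKM in the prefrontal and 8.23 to 16.7 FPKM in the cerebellar libraries (log2 2.08 among NeuN+ and 2.18 among NeuN- nuclei, limma adjusted p = 1.95e-05 and 1.50e-05). Sct, the precursor of secretin, was listed at 1.69 and 2.67 FPKM in cerebellar NeuN+ libraries and at 0 in the other 6. Ucn2, the precursor of urocortin 2, was higher in cerebellar than in prefrontal NeuN- nuclei (1.86 and 2.76 against 0.0972 and 0.122 FPKM, log2 1.62, limma adjusted p = 3.99e-04). Apart from 1 prefrontal NeuN+ library (1.06 FPKM), Ucn2 reached 1 FPKM in cerebellar NeuN- libraries alone. Its direction thus follows largely from the filter. Adm, the precursor of adrenomedullin, was lower in NeuN+ nuclei of both regions (scaled means 2.43 against 18.0 in the prefrontal and 0.247 against 6.57 in the cerebellar comparison; log2 -2.48 and -2.60). In the prefrontal libraries none of these precursors reached the level of Sst, Cck or Npy, since the 47 genes together summed to 103 to 134 scaled FPKM there.

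The features whose levels most resembled each peptide gene were found by Pearson's r of log2(scaled FPKM + 1) over the 8 libraries among 8962 features. With 2 regions that differ widely, 8 libraries of 1 mouse give many features a high r, and the values are a description only. For Sst these were Necap1 (r = 0.9996) and Tusc3 (0.998), for Npy Osbpl1a (0.999) and Rgs4 (0.998), and for Crh Ccdc3 (0.9996). Rgs4, which encodes a regulator of G protein signalling, stood at 224 and 177 scaled FPKM in prefrontal NeuN+ and NeuN- nuclei and, like Npy, was higher in cerebellar NeuN- than NeuN+ nuclei (8.23 and 0.0312). Ccdc3 stood at 9.32 and 2.85 scaled FPKM in prefrontal NeuN+ and NeuN- nuclei. For Vip the closest were Ddn and Mfsd1, for Cck Atp6v1c1 and Frzb, and for Tac1 Cacybp and Bysl. For Tac2 they were Mlip and Sec13, for Penk Vstm5 and Krit1, for Pdyn H2-DMa and Bnip3, and for Cort Cbln2 and Angptl6, with r of at least 0.9966 throughout.

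In the authors' tables, built on mm9, the 10 genes lie on separate loci and none overlaps another annotated feature. Sst spans chr16:23889667-23890930 and Cck chr9:121398942-121404812. Npy at chr6:49772728-49779504 and Tac1 at chr6:7505071-7512973 share a chromosome, as do Penk at chr4:4060683-4065592 and Cort at chr4:148499300-148500850, and Vip at chr10:4698927-4707323 and Tac2 at chr10:127161534-127168824. Crh spans chr3:19593401-19595396 and Pdyn chr2:129512285-129525674. The nearest other feature was 1608 bases away from Cort (Apitd1), 1802 from Crh (Trim55) and 3538 from Tac2 (Myo1a), so a fragment could be assigned to a peptide gene without overlap in the annotation.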

How the data were processed

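RNA of NeuN-sorted nuclei was measured in 8 libraries of 1 mouse; 168 other samples of the series were not analysed here. The authors deposited FPKM per gene, already divided by library size and transcript length, in tables with Cufflinks columns (FPKM, its confidence limits and a status). Tools in the submitters' processing notes, with no roles stated, are Cufflinks, TopHat2 2.1.1, Bismark, Bowtie 1.1.1 and Trim Galore 0.3.7, and the mouse build is mm9. Neither the annotation nor the strand setting is given in the sources used. Low values fell on whole fragments only in part: 50.0% to 53.4% lay within 0.05 of a whole number implied by the confidence limits. Counts were thus not recovered for every value, and no count test was run. Of all values, 14 had a status other than OK, none of them of the 10 genes; an exact 0 can be a failed estimate and is written as listed at 0.

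FPKM were multiplied by median-of-ratios factors (0.878 to 1.05, from 9109 features), and features with at least 1 FPKM in 2 libraries were kept (14376). limma 3.58.1 (R 4.3.3) was fitted to log2(scaled FPKM + 1) with 1 mean for each of the 4 groups and a variance trend, two-sided, with Benjamini-Hochberg adjustment over all kept features and calls at an adjusted p under 0.05. Folds are on the (scaled FPKM + 1) scale and understate changes of low genes. No fold is given against a group listed at 0. The script was tested on simulated data. Sequences come from RefSeq, GRCm38.p6; the promoters of Penk and Crh and the proteins were not used here. Named genes are the 10 members and, from each list of related genes, the 3 highest and the 2 largest called differences in each direction; from cell type lists, the highest genes; for each member, the 2 features with the highest r (1 such feature is not reported here); and Rbfox3. Genes named to complete a list (Sstr3 and Oprk1 in the plot of receptors), for the way they passed the filter, or after their values were seen are additions. The members and the lists were chosen with earlier results of these data known.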

Additional observations from a re-analysis of the deposited data

Results flagged for a closer look

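For 6 of the 10 genes the difference between NeuN+ and NeuN- nuclei itself differed between the regions, by limma's test of that difference (cerebellum minus prefrontal cortex, log2). It was 1.20 for Cck (adjusted p = 4.87e-04), whose direction was opposite in the regions, -0.70 for Penk (1.90e-04), likewise opposite, and -2.02 for Npy (5.42e-05), which differed between the fractions in the cerebellum only by the tests run. For Crh (-1.79, 1.30e-05) and Pdyn (0.35, 0.0135), both listed at 0 in the cerebellum, and Vip (-0.38, 0.00486), near 0 there, the value is the prefrontal difference with its sign turned or nearly so. Over all features 33.1% were called higher and 37.0% lower in this comparison.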

How the results depend on the processing

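Each result was recomputed with 11 other choices and without each library in turn. The number of the 10 genes called between the prefrontal fractions changed by more than 1.5 times under 1 of them: with FPKM rescaled to a common sum it was 3 (all higher in NeuN+ nuclei) in place of 6. All 10 regional calls in each fraction were made under every alternative, except the stricter filter, which left 9. Directions that reversed belonged to differences that were not called. For Npy between prefrontal fractions these were -0.224 as deposited and, leaving out single libraries, a range from -0.0720 to 0.0986 (below 0 without prefrontal NeuN+ replicate 1, at -0.0273, and without prefrontal NeuN- replicate 2). For Tac2 the value was -0.0857 as deposited and ran from -0.0888 without prefrontal NeuN- replicate 2 to 0.342 without NeuN- replicate 1. For Cort it was -0.0519 as deposited and ran from -0.0296 without prefrontal NeuN+ replicate 1 to 0.2404 without NeuN+ replicate 2. The cerebellar minus prefrontal fraction differences of Tac2 and Cort mirror these, since both genes are listed at 0 in the cerebellum: 0.0857 and 0.0519 as deposited, with ranges from -0.342 to 0.0888 and from -0.2404 to 0.0296. For Sst that difference was -0.0780 with a common sum, -0.0718 with quantile normalization, and -0.144 to 0.434 leaving out single libraries (below 0 without replicate 1 of either cerebellar fraction). Why these values moved was not tested.

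Further calls of single genes were gained or lost. Sst was called in the cerebellum without cerebellar NeuN- replicate 1 (-0.67, adjusted p = 0.0420, in a range up to 0.735). Vip was called between cerebellar fractions under 3 of 20 settings (pseudocounts of 0.1 and 0.5, and the 2 groups alone). The cerebellar minus the prefrontal fraction difference was called under 4 of 19 settings for Tac1, under 17 for Pdyn, under 18 for Vip, and for Tac2 only without prefrontal NeuN- replicate 1 (-0.342, adjusted p = 0.0232, in a range up to 0.767). The replicate numbers of the groups did not go together (correlations of same-numbered deviations from -0.045 to 0.0342). With the replicate number as a block, 5 prefrontal and 4 cerebellar calls were made among the 10 genes, the lost one being Tac1.

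Each value has confidence limits, but the number of fragments behind it is not given. Where a gene is listed at 0, both limits are 0 as well, and no limit was derived here. Among low values, Vip at 0.0486 FPKM in a cerebellar NeuN- library had an upper limit of 0.146 FPKM. For Tac1 at 0.0714 FPKM in a cerebellar NeuN+ library the upper limit was 0.214 FPKM. With 2 libraries a group from 1 mouse, differences between animals cannot be read from these data.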
